A study of Mus musculus with 17 samples.

Results

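The 9 genes of the red blood cell lineage followed here, Klf1, Gata1, Alas2, Hemgn, Slc4a1, Rhag, Epor, Tfrc and Car2, were measured on 17 Affymetrix whole-genome mouse arrays of sorted skeletal cells. They were found by gene symbol: every probe set that the platform annotation gives to a single member symbol was taken, which gave 16 probe sets for the 9 genes, of 18193 genes with such a probe set. All 9 passed the filter on low signal, so all 9 were among the 14502 genes tested. The cells were mouse bone cartilage stroma progenitors (mBCSP) and mouse skeletal stem cells (mSSC) of female C57BL/6 mice, sorted by FACS, either from femoral fracture callus taken 7 days after fracture or from uninjured bone. Ovariectomy (OVX) or sham surgery was done at 8 weeks of age and fracture at 14 weeks, and OVX + E2 mice also received a subcutaneous 17β-estradiol pellet at ovariectomy. The sort excluded cells with CD45, Tie2 and Ter119, a surface marker of erythroid cells.

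Of the 12 callus arrays, 2 came from OVX + E2 mice, 2 from OVX mice and 4 from sham mice. A further 2 callus arrays had labels that disagree on OVX or sham, and 2 gave no ovary surgery. The 5 arrays of uninjured bone came from OVX mice (2) and sham mice (3). Arrays are named here by the code that opens their title, and the codes take 3 forms. The two-letter form (OB, OS, EB, ES, SB, SS) holds only callus, with O for OVX, E for OVX + E2 and S for sham, followed by B for mBCSP or S for mSSC. A three-letter form adds the injury in the middle: callus OIB, OIS (the arrays of conflicting labels), SIB and SIS, and uninjured OUB, OUS and SUS. In the population-first form the callus arrays are BI and SI (no surgery given), and the uninjured arrays, both sham, are BU and SU. No labels tie arrays to separate mice, so p-values measure only the spread between these arrays. Within a form no array had a replicate of the same surgery, injury and population.

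Red blood cells arise in the marrow from progenitors in which the transcription factors GATA1 and KLF1 switch on the genes for heme, globin and the red cell membrane. The hormone erythropoietin keeps these progenitors alive through its receptor Epor, and transferrin receptor (Tfrc) brings in the iron for heme. Bone marrow lies against the endosteal surface from which skeletal cells are released, and a fracture callus is built largely of skeletal tissue.

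The 9 genes varied together over the arrays. All 9 were high on 4 of the 5 uninjured arrays and on the callus array BI, and low on the 6 two-letter callus arrays. Uninjured SU lay below the other 4 uninjured arrays for every gene. The mean log2 signal of the 6 genes most tied to the lineage (Klf1, Gata1, Alas2, Hemgn, Slc4a1 and Rhag) put the callus arrays in the order OB (6.74), ES (6.84), SB (6.90), EB (6.93), OS (6.95), SS (7.35), SI (7.87), SIB (8.63), SIS (8.91), OIB (10.19), OIS (11.68) and BI (12.90). The uninjured arrays lay at 7.06 (SU), 12.41 (OUB), 12.45 (OUS), 12.69 (SUS) and 12.75 (BU). With a single array for each combination of labels and form, differences between neighbours in this order were not tested. SI and SU fell below the 4 three-letter callus arrays in this mean, but single genes departed from it: Gata1 was higher on SI and SU than on SIB and SIS, and Tfrc was higher on both than on SIB. SU and SUS carry the same labels of surgery, injury and population and lay far apart in this mean (7.06 and 12.69). BI and SU therefore stood apart from the other arrays of their injury class, and the injury comparison, the population comparison, the correlations and the list counts are given with and without them. In bulk samples such as these, fewer cells of a type and less RNA per cell cannot be told apart.

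**Figure D1:**
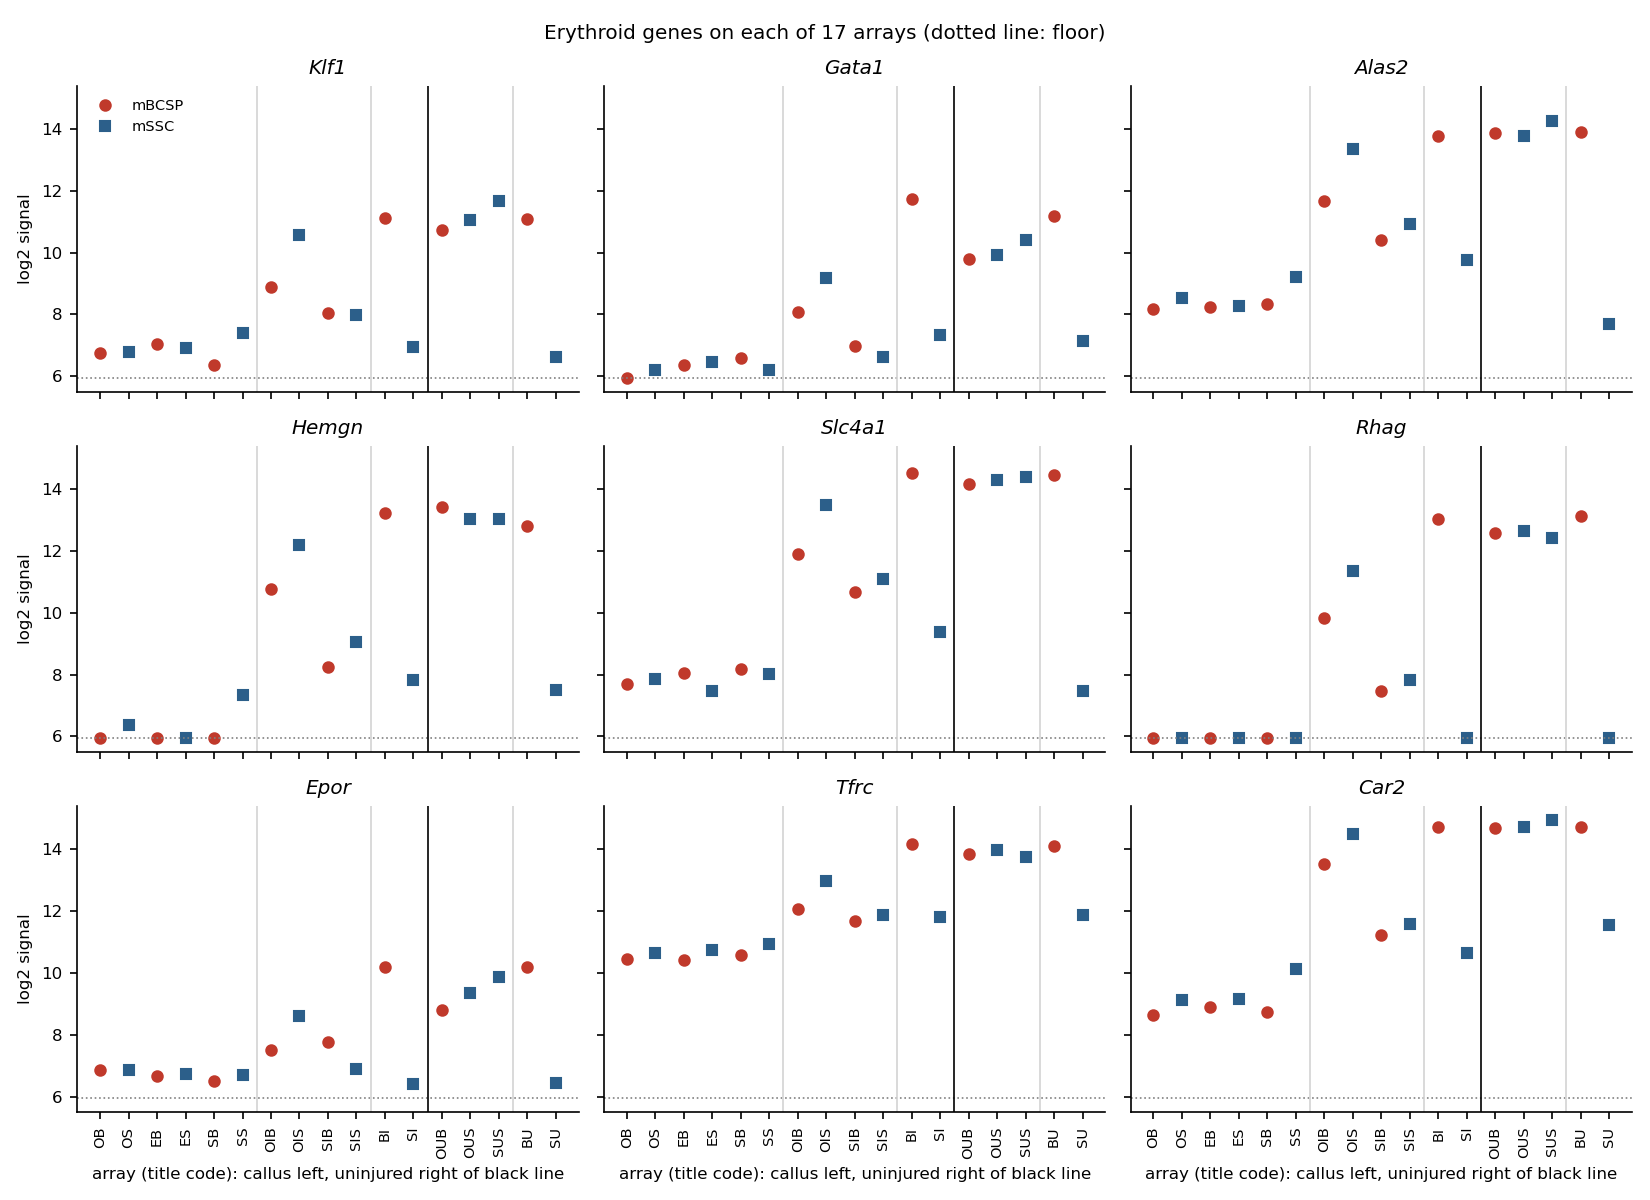
Each panel plots 1 gene on 17 arrays, with log2 signal on the vertical axis and the array's title code on the horizontal axis (callus left and uninjured bone right of the black line, title forms between grey lines; circles mBCSP, squares mSSC; 1 value per array, so no error bars). All 9 genes are high on uninjured OUB, OUS, SUS and BU and on callus BI, and uninjured SU lies below the other 4 uninjured arrays in every panel.

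Klf1 (GRCm38.p6 chr8:84901982-84905291) encodes the zinc finger factor that opens globin and membrane genes in erythroid cells. On the two-letter callus arrays its log2 signal was 6.36 at the lowest, 6.85 at the median and 7.41 at the highest. The three-letter callus arrays had 8.04 (SIB), 7.99 (SIS), 8.89 (OIB) and 10.57 (OIS), and the population-first callus arrays 11.11 (BI) and 6.95 (SI). Uninjured bone had 10.72 (OUB), 11.04 (OUS), 11.66 (SUS), 11.09 (BU) and 6.62 (SU). Callus OIS was close to the uninjured arrays, and callus and uninjured values overlapped through BI and SU.

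Gata1 (chrX:7959260-7976663), the factor that commits progenitors to the erythroid and megakaryocyte lineages, followed the same course. The two-letter callus arrays ranged from 5.95, the floor below which signals were not read, through a median of 6.28 to 6.60. In the other callus arrays it was 6.99 (SIB), 6.62 (SIS), 8.08 (OIB), 9.18 (OIS), 11.74 (BI) and 7.32 (SI). In uninjured bone it was 9.78 (OUB), 9.91 (OUS), 10.42 (SUS), 11.17 (BU) and 7.13 (SU). Callus BI held the highest Gata1 signal of the 17 arrays.

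Among the members with a place in heme synthesis and red cell proteins, Alas2 (chrX:150547417-150570622), the first and rate-limiting enzyme of erythroid heme synthesis, ran from 8.16 through a median of 8.31 to 9.20 on the two-letter callus arrays. It had 10.39 (SIB), 10.91 (SIS), 11.65 (OIB), 13.34 (OIS), 13.78 (BI) and 9.77 (SI) on the other callus arrays, and 13.85 (OUB), 13.76 (OUS), 14.24 (SUS), 13.90 (BU) and 7.69 (SU) in uninjured bone. SU was the lowest of all 17 arrays for Alas2. Hemgn (chr4:46393989-46404183), a nuclear protein of blood progenitors and erythroblasts, was at the floor on 4 of the 6 two-letter callus arrays, the highest being 7.33 (SS). It reached 8.23 (SIB), 9.04 (SIS), 10.76 (OIB), 12.18 (OIS), 13.23 (BI) and 7.84 (SI) on the other callus arrays, against 13.42 (OUB), 13.04 (OUS), 13.02 (SUS), 12.79 (BU) and 7.50 (SU) in uninjured bone. The SU value of Hemgn lay within the range of the two-letter callus arrays and SI.

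Slc4a1 (chr11:102348820-102365281) encodes band 3, the anion exchanger that anchors the red cell skeleton to the membrane. It had 7.48, a median of 7.94 and 8.19 on the two-letter callus arrays, 10.68 (SIB), 11.08 (SIS), 11.90 (OIB) and 13.48 (OIS) on the three-letter ones, and 14.50 (BI) and 9.37 (SI) on the population-first ones. Uninjured bone had 14.14 (OUB), 14.28 (OUS), 14.39 (SUS), 14.45 (BU) and 7.46 (SU). Its other 2 probe sets also separated these arrays, with 12.02 and 13.82 on BI and 7.90 and 6.26 on SU. Rhag (chr17:40811099-40844094), the glycoprotein that carries the Rh complex, was at the floor on all 6 two-letter callus arrays, on SI and on SU. It stood at 7.48 (SIB), 7.81 (SIS), 9.82 (OIB), 11.34 (OIS) and 13.02 (BI) on the remaining callus arrays, and at 12.58 (OUB), 12.65 (OUS), 12.40 (SUS) and 13.11 (BU) on the remaining uninjured arrays. A signal at the floor is only an upper bound, so Rhag differences against these arrays are understated.

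Of the receptors and the enzyme with wider expression, Epor (chr9:21958897-21963576) had 6.49, a median of 6.72 and 6.86 on the two-letter callus arrays, 7.77 (SIB), 6.88 (SIS), 7.52 (OIB), 8.60 (OIS), 10.19 (BI) and 6.42 (SI) on the others, and 8.81 (OUB), 9.34 (OUS), 9.86 (SUS), 10.20 (BU) and 6.45 (SU) in uninjured bone. Epor spanned 3.77 log2 units over the arrays, against 7.46 for Hemgn and 7.16 for Rhag. Tfrc (chr16:32608896-32632794), which dividing cells of every kind use to take up iron, was well above the filter on all arrays. It had 10.40, a median of 10.60 and 10.92 on the two-letter callus arrays, 11.68 (SIB), 11.88 (SIS), 12.07 (OIB), 12.96 (OIS), 14.16 (BI) and 11.80 (SI) on the others, and 13.84 (OUB), 13.96 (OUS), 13.75 (SUS), 14.08 (BU) and 11.85 (SU) in uninjured bone. Car2 (chr3:14886269-14900770), carbonic anhydrase 2, is abundant in red cells and also serves acid secretion in osteoclasts. It had 8.65 (OB), 9.12 (OS), 8.89 (EB), 9.16 (ES), 8.73 (SB) and 10.11 (SS) on the two-letter callus arrays, 11.23 (SIB), 11.56 (SIS), 13.52 (OIB), 14.48 (OIS), 14.70 (BI) and 10.63 (SI) on the others, and 14.69 (OUB), 14.70 (OUS), 14.93 (SUS), 14.70 (BU) and 11.55 (SU) in uninjured bone. On SU, Gata1, Hemgn, Tfrc and Car2 lay above all two-letter callus arrays, while Klf1, Alas2, Slc4a1 and Epor did not and Rhag was at the floor. Of the 6 measured osteoclast markers that were tested, 1 was called higher and 1 lower in callus, and 1 higher and 2 lower without BI and SU. The mean of the list lay between 8.04 and 9.66 on callus arrays and between 8.07 and 8.35 on uninjured arrays.

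Over the 17 arrays the 36 pairs of members had Pearson correlations between 0.875 and 0.993, with a median of 0.955. Without BI and SU, over 15 arrays, they lay between 0.892 and 0.996, with a median of 0.968. These are descriptions of arrays that share forms and populations, as are the correlations that follow. The genes most like the mean of the 6 lineage genes, among the genes that are not members, were Ermap (r = 0.993), an erythroid membrane protein, Trim10 (0.992), needed for terminal red cell maturation in mouse cells, Bpgm (0.990), the enzyme that makes 2,3-bisphosphoglycerate, Epb42 (0.990), a partner of band 3, and 5430401H09Rik (0.987). Correlations above 0.9 with this mean were held by 113 of the 14502 genes tested, members included, and the median over all genes was -0.111. Among the 14502 genes Rhag ranked 1, Klf1 4, Slc4a1 7, Hemgn 8 and Alas2 9 in likeness to a mean to which they belong. Tfrc ranked 27, Car2 33, Gata1 43 and Epor 46.

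The promoters of 4 members are shown because GATA1 and KLF1 are themselves members and move with the others, and because these 4 give the combinations of motifs found. RefSeq windows (GRCm38.p6) were searched over the 250 bases before the start, on both strands, for a GATA motif (AGATAA or AGATAG or TGATAA or TGATAG) and a KLF motif (CACCC), which do not overlap in these windows. Capitals mark matches, and each sequence runs 5′ to 3′ on the strand of its gene. Klf1 is read at chr8:84901732-84901981 (plus strand), Alas2 at chrX:150547167-150547416 (plus), Hemgn at chr4:46404184-46404433 (minus) and Gata1 at chrX:7967911-7968160 (minus), a start inside the annotated span of that gene.
Klf1: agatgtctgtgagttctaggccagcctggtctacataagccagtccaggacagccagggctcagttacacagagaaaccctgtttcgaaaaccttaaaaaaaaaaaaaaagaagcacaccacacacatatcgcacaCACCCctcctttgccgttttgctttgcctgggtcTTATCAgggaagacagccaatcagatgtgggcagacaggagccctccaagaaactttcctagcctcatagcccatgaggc
Alas2: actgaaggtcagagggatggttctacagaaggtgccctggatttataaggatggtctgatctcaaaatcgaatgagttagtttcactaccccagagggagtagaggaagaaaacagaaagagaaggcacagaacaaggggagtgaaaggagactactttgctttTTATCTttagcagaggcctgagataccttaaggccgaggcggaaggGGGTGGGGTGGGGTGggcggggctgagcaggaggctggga
Hemgn: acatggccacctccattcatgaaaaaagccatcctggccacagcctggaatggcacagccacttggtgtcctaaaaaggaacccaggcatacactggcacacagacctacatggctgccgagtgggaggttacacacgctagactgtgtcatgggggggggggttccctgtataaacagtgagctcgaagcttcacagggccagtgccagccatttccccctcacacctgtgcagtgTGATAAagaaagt
Gata1: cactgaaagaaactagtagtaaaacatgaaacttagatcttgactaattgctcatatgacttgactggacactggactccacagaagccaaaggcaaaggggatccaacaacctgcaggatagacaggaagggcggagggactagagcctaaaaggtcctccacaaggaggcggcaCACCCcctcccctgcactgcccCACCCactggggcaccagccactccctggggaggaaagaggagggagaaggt
Klf1 holds 1 match of each motif and Alas2 1 GATA and 3 KLF matches, whereas Hemgn holds 1 GATA match and no KLF match and Gata1 2 KLF matches and no GATA match. Of the 7 members with a window, 5 held a GATA motif (Klf1, Alas2, Hemgn, Epor and Rhag) and 6 a KLF motif, and 4 held both. Among all 32851 promoter windows, 26.5% held the GATA motif and 52.0% the KLF motif. A match is a string of letters and no evidence of binding in these cells.

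Callus was set against uninjured bone over 12 and 5 arrays. With terms for population and title form, all 9 genes had negative log2 fold changes, of -1.10 (Tfrc) to -2.33 (Rhag), and none passed limma's test at a Benjamini-Hochberg adjusted p under 0.05. Of all genes tested 42.4% passed, 19.8% as lower and 22.6% as higher in callus, so 0 of 9 is below the share of genes called. The median was -1.41 over the 9 genes and 0.02 over all genes tested. Tfrc came nearest (SE 0.44, 95% interval -2.02 to -0.17, limma adjusted p = 0.0528). It was also the 1 member with an unadjusted p under 0.05. Rhag averaged 7.59 ± 2.48 on callus arrays (SD, n = 12) and 11.34 ± 3.02 on uninjured arrays (SD, n = 5), with an SE of 1.17 for the difference and a limma adjusted p = 0.123. Klf1 (-1.43, SE 0.79), Gata1 (-1.41, SE 0.75), Hemgn (-1.90, SE 1.01), Epor (-1.12, SE 0.62) and Car2 (-1.52, SE 0.73) had limma adjusted p-values between 0.106 and 0.161. Alas2 (-1.21, SE 0.94) and Slc4a1 (-1.33, SE 1.01) had 0.328 and 0.317. The spread inside each class reached SDs of 2.57 on callus arrays (Hemgn) and 3.07 on uninjured arrays (Slc4a1).

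Within the three-letter form, which holds 4 callus and 3 uninjured arrays and neither BI nor SU, the groups separated. This form was fitted alone after the data had been seen, so the separation is no independent support for a direction. For all 9 members every callus array lay below every uninjured array, as was so for 21.5% of all genes tested. In all, 8 members passed limma's test in this form alone (adjusted p between 0.00638 and 0.0303), where 15.4% of all genes were called lower. The fold changes of these 8 ran from -1.58 for Epor (SE 0.43) and -1.65 for Tfrc (SE 0.29) to -3.02 for Hemgn (SE 0.86) and -3.34 for Rhag (SE 0.88). Car2, at -2.01 (SE 0.76, limma adjusted p = 0.0757), did not pass. The callus pair of conflicting surgery labels stood above the sham callus pair: Slc4a1 had 11.90 (OIB) and 13.48 (OIS), against 10.68 (SIB) and 11.08 (SIS). With those labels in conflict the pairs were not compared by a test.

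In the population-first form, with 2 callus and 2 uninjured arrays, no member passed. BI and BU, both mBCSP, agreed within 0.02 for Klf1 (11.11 in callus and 11.09 in uninjured bone) and 0.05 for Slc4a1 (14.50 in callus and 14.45 in uninjured bone), and over the 9 genes BI minus BU ran from -0.12 (Alas2) to 0.57 (Gata1). The mSSC arrays SI and SU were both low, Klf1 having 6.95 in callus and 6.62 in uninjured bone, though SI minus SU ran from -0.92 (Car2) to 2.08 (Alas2). The fitted log2 fold changes ran from -0.46 (Car2) to 0.98 (Alas2 and Slc4a1), and none passed limma's test (adjusted p between 0.415 and 0.998, 1 residual degree of freedom). The 95% intervals were wide, -1.46 to 1.37 for Rhag and -1.01 to 1.04 for Tfrc, and for all 9 genes the three-letter estimate lay below the lower bound of the population-first interval. For Rhag both SI and SU were at the floor, so its population-first estimate and interval rest on floored values. The difference in injury response between these forms was not tested.

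**Figure D2:**
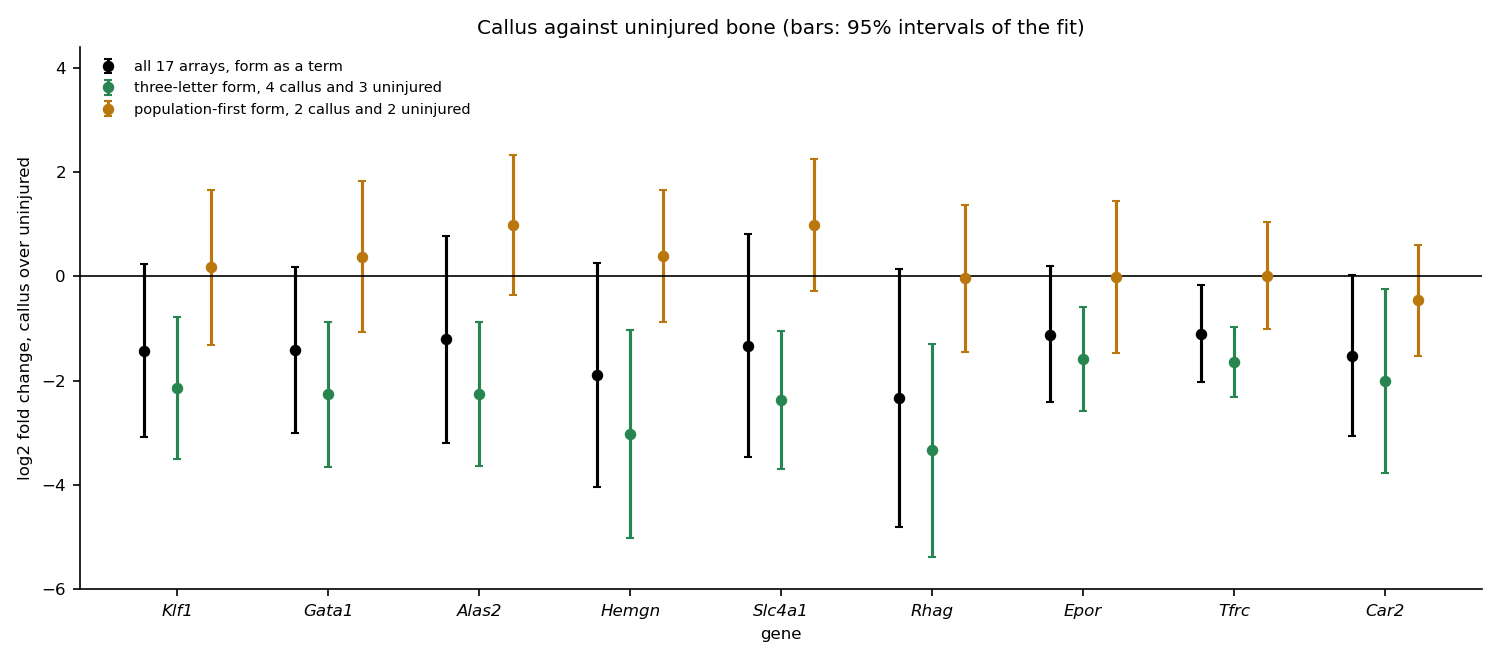
Log2 fold change of callus over uninjured bone for each gene (points) with the 95% interval of the limma fit (bars), from all 17 arrays with the title form as a term, from the three-letter form alone and from the population-first form alone. Values of the three-letter form lie between -1.58 and -3.34, those of the population-first form between -0.46 and 0.98.

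Single arrays decided whether the genes passed over all arrays. Without the uninjured array SU all 9 members were called lower in callus, with Rhag at -3.47 and Tfrc at -1.54, where 41.1% of all genes passed in either direction. Without the callus array BI 8 were called, with Rhag at -3.46 and Alas2, at -1.99, the exception, where 50.7% of all genes passed. Leaving out callus OIS gave 2 calls, Tfrc (-1.25) and Car2 (-1.92), where 42.2% of all genes passed. Without both BI and SU all 9 were called (limma adjusted p between 9.08e-06 and 0.00194), Tfrc at -1.85, Car2 at -2.55 and Rhag at -4.25, where 50.1% of all genes were called. BI and SU were chosen for this step after their values for these genes had been seen, so this fit is no independent support for a direction. A fit with no term for the form called 9 members, against 48% of all genes, and one with the form as a random block called 2, Tfrc and Car2, against 45.6%.

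The difference between the populations depended on the title form. Over all arrays the 9 genes had log2 fold changes of 0.31 (Tfrc) to 1.54 (Rhag) in mBCSP against mSSC, and none passed limma's test (adjusted p between 0.601 and 0.779), as with all other genes (0% called; 1407 genes had an unadjusted p under 0.05). Within the 3 two-letter pairs mBCSP minus mSSC was between -1.38 and 0.58 for all 9 genes, and within the 3 three-letter pairs between -1.69 and 0.89. In all 6 of these pairs Tfrc (-0.89 to -0.12) and Car2 (-1.38 to -0.01) were lower on the mBCSP array. Within the 2 population-first pairs it was positive for every gene. Rhag differed by 7.07 in callus and by 7.16 in uninjured bone, both against an mSSC array at the floor, Hemgn by 5.39 and 5.29, Klf1 by 4.16 and 4.47 and Tfrc by 2.36 and 2.23. In that form alone 8 of 9 members passed limma's test, Tfrc (2.30, adjusted p = 0.0531) being the exception, where 0.621% of all genes passed. This fit was chosen after the data had been seen and rests on 2 pairs with 1 residual degree of freedom. It is no independent support for a difference between the populations. Without BI and SU, which leaves neither population-first pair whole, the 9 fold changes turned negative, from -0.61 (Hemgn) to -0.13 (Gata1), and no member and no other gene passed limma's test (0% called, adjusted p of the members between 0.173 and 0.831).

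The difference between forms was tested directly in a fit that gave each pair its own level, added after the data were seen. All 9 members passed (limma adjusted p between 0.000138 and 0.00223), where 4.5% of all genes did. Rhag differed between the population-first form and the mean of the other forms by 7.44 (SE 0.40), Slc4a1 by 6.31 (SE 0.52), Hemgn by 5.94 (SE 0.51), Alas2 by 5.68 (SE 0.60) and Klf1 by 4.80 (SE 0.51). Gata1 (4.36, SE 0.42), Car2 (4.18, SE 0.38), Epor (3.92, SE 0.47) and Tfrc (2.65, SE 0.24) followed. For Rhag the SE and adjusted p rest on floored values, since both arrays of every two-letter pair, SI and SU were at the floor. With no floor Rhag differed by 8.66 (SE 0.69), and the 9 members passed (limma adjusted p between 0.000579 and 0.00254), where 4.55% of all genes did. What the title forms stand for is not given in the sources used here, so form and any batch it may mark cannot be told apart.

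**Figure D3:**
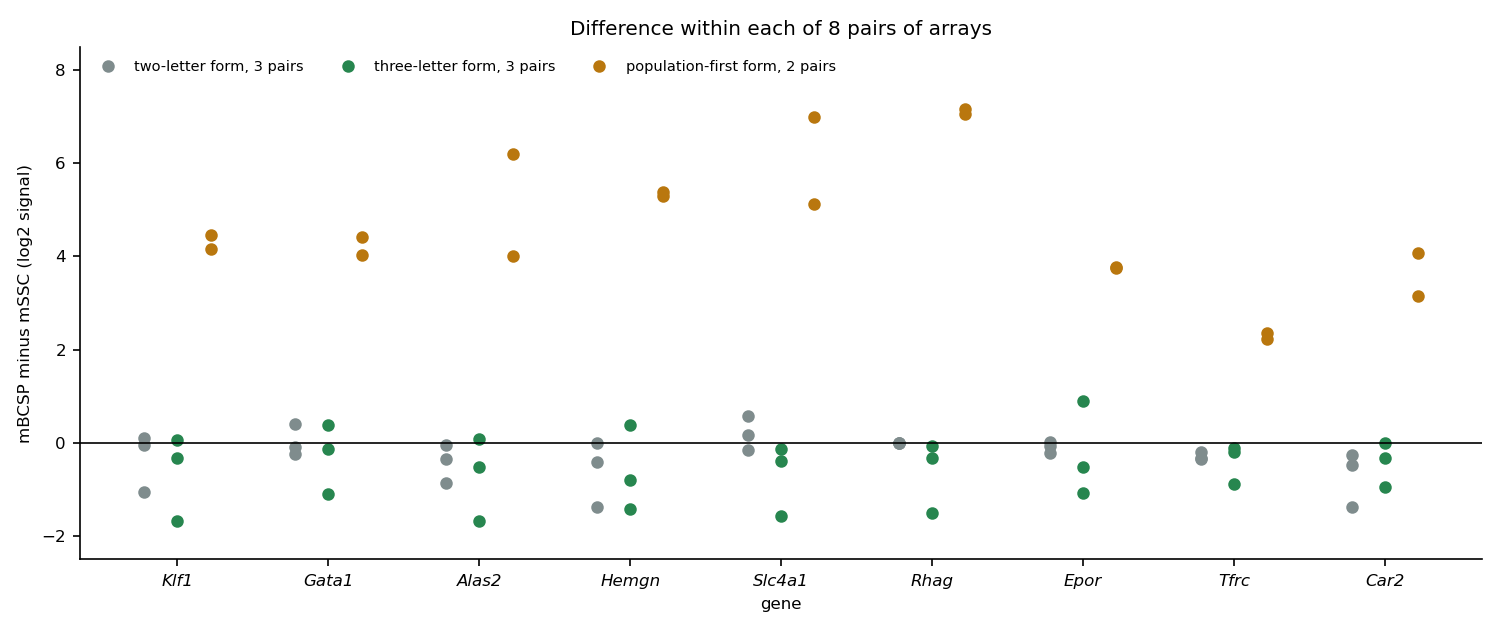
Difference in log2 signal between the mBCSP and the mSSC array of each of 8 pairs, by gene and title form (1 point per pair). The 2 population-first pairs lie between 2.23 and 7.16 for every gene, the other 6 pairs between -1.69 and 0.89.

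No difference by ovary state passed the test for these genes in callus. On the two-letter arrays, which carry this comparison and that of estradiol, only 4 members pass the filter by themselves: Alas2, Slc4a1, Tfrc and Car2. Klf1, Gata1, Hemgn, Rhag and Epor passed it only with other arrays counted, so the lack of calls for them is a reading at low signal. Klf1 had 6.75 (OB) and 6.79 (OS) in OVX callus and 6.36 (SB) and 7.41 (SS) in two-letter sham callus, and Slc4a1 had 7.70 and 7.85 in OVX callus and 8.19 and 8.03 in sham callus. The three-letter sham arrays SIB and SIS lay higher for both. In OVX against sham callus no member passed limma's test over all arrays, nor did any other gene (0% called; 293 genes and 0 members had an unadjusted p under 0.05), and the members ran from -0.53 (Car2, SE 1.13) to 0.25 (Epor, SE 1.09). Within the two-letter form alone the errors were smaller and the fold changes the same: Klf1 -0.12 (95% interval -0.96 to 0.72), Alas2 -0.43 (-1.15 to 0.29), Tfrc -0.19 (-0.53 to 0.15) and Car2 -0.53 (-1.39 to 0.33), again with no member called (limma adjusted p between 0.636 and 1) from 2 OVX and 2 sham arrays. Rhag was at the floor on all of them and Hemgn on 1 of 2 in each group, so no fold is given for Rhag.

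Estradiol likewise gave no member that passed. In OVX + E2 callus Klf1 had 7.03 (EB) and 6.92 (ES), against 6.75 (OB) and 6.79 (OS) in OVX callus, and Alas2 had 8.24 and 8.28 in OVX + E2 callus, against 8.16 and 8.52 in OVX callus. Over all arrays 0.0207% of genes were called (3 genes, none a member), and the members lay between -0.21 (Hemgn) and 0.34 (Gata1). Both ends of this range take in arrays at the floor: for Hemgn both OVX + E2 arrays and 1 of 2 OVX arrays, for Gata1 1 of 2 OVX arrays. Hemgn was 0.03 with no floor. Rhag was at the floor on all of these arrays, so no fold is given for it. Within the two-letter form the 95% interval was -0.63 to 1.04 for Klf1, -0.80 to 0.64 for Alas2, -0.67 to 0.66 for Slc4a1 and -0.33 to 0.35 for Tfrc.

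In uninjured bone, OVX arrays were high for all 9 genes and the sham arrays SUS and BU were as high, while sham SU was low. Rhag had 12.58 (OUB) and 12.65 (OUS) in OVX bone, against 12.40 (SUS), 13.11 (BU) and the floor (SU) in sham bone. Gata1 averaged 9.85 ± 0.09 in OVX bone (SD, n = 2) and 9.58 ± 2.15 in sham bone (SD, n = 3). With the form as a term this comparison rests on SUS alone as its sham array. SUS is an mSSC array, so OUB enters through the population term shared by all arrays, which depended on the title form. Both OVX arrays lay above SUS for Rhag, Hemgn and Tfrc, and below it for the other members. The fit gave -0.56 for Rhag, -0.23 for Hemgn and 0.00 for Tfrc, so its signs are not a direction of OVX against SUS for these genes. The fold changes in OVX against sham uninjured bone were then -1.19 (Epor, SE 1.36) to 0.00 (Tfrc, SE 0.90), no member passed limma's test (adjusted p between 0.937 and 1) and 0.145% of all genes did. Without the form term all 9 had a positive sign, and none passed limma's test.

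Genes of the same pathways came from lists drawn up with results of these data known. BI and SU were chosen from the members' values, and the three-letter form, fitted alone after the data had been seen, holds neither. Counts without BI and SU or in that form are thus no independent support for lists that move with the members. Their counts stand against 19.8% of all genes called lower and 22.6% called higher in callus over all arrays, 15.4% called lower in the three-letter form, and 23.4% lower and 26.7% higher without BI and SU. Of 11 red cell membrane genes tested 1 was lower over all arrays (Xk, -2.18, limma adjusted p = 0.000317), with a median of -1.27, 10 were lower in the three-letter form and 11 without BI and SU. Epb42, which binds band 3, Ank1, the ankyrin of the red cell skeleton, and Kel, the Kell antigen, had fold changes of -1.98, -1.68 and -1.85 in callus against uninjured bone over all arrays and did not pass. Genes of terminal red cell maturation had 1 of 9 lower over all arrays, Ube2l6 (-2.23, limma adjusted p = 0.00744), 7 of 9 in the three-letter form and 8 of 9 without BI and SU, with Trim10 (-1.80) and Car1 (-1.68) not passing over all arrays. The correlation of the list mean with the mean of the 6 lineage genes over 17 arrays was 0.987 for the membrane list and 0.993 for the terminal list. Without BI and SU it was 0.985 and 0.993.

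Heme synthesis and mitochondrial iron import had 3 of 11 lower over all arrays, near the share of all genes, 8 of 11 in the three-letter form and 10 of 11 without BI and SU. Abcb10, a mitochondrial transporter of heme synthesis, stood at -1.47 (limma adjusted p = 0.0451), and Alas1, the form of the first enzyme that all cells use, at -1.26 (limma adjusted p = 0.00237). Slc25a37, mitoferrin, which carries iron into erythroid mitochondria, had -1.83 and did not pass (limma adjusted p = 0.0593). Of 3 globin genes tested 1 was lower over all arrays, 2 in the three-letter form and 2 without BI and SU. Over all arrays Hba-a2 was lower (-1.69, limma adjusted p = 0.000175) and Hbb-b2 was not called (-0.76, limma adjusted p = 0.193). In the three-letter form Hba-a2 (-2.0, limma adjusted p = 0.0122) and Hbb-b2 (-1.26, limma adjusted p = 0.0397) were both lower. The correlation with the mean of the lineage genes over all arrays was 0.934 for Hbb-b2, 0.625 for Hba-a2 and -0.33 for Hbb-bh1. Hbb-b2 was bright on every array, 11.20 at the lowest and 15.68 at the highest, and had 14.79 on callus BI and 12.74 on uninjured SU. Unlike the members, Hba-a2 was higher on SU (13.51) than on BI (12.35).

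Of 10 factors that act with GATA1 and KLF1 or beside them in blood progenitors 7 were lower in callus over all arrays, 6 in the three-letter form and 8 without BI and SU. Among the 7 were Myb (-2.77, limma adjusted p = 0.000216), Lmo2 (-2.62, limma adjusted p = 0.00299), Nfe2 (-2.57, limma adjusted p = 0.00243) and Tal1 (-2.09, limma adjusted p = 0.0309), all of which early blood progenitors of other lineages also use. Callus BI had 13.05 for Lmo2 and 12.39 for Nfe2, against 12.82 and 12.68 on uninjured SU, whereas Tal1 had 12.32 on BI and 9.09 on SU. Of erythropoietin signalling genes 5 of 6 were lower over all arrays, 2 in the three-letter form and 4 without BI and SU. Over all arrays they were Kit, the stem cell factor receptor (-2.41, limma adjusted p = 8.98e-05), and Stat5b (-0.77), Stat5a (-0.75), Cish (-0.73) and Jak2 (-0.63), which act below Epor. Kit had 6.81 on BI and 10.42 on SU, the reverse order to Epor. In iron handling 2 of 8 genes were lower, Slc40a1, the iron exporter ferroportin (-1.59), and Tfr2 (-1.58), and 1 was higher, Aco1, the iron-sensing aconitase (0.86). Without BI and SU the iron handling counts were also 2 lower and 1 higher.

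Markers of other cell types were read on the same arrays, against the same shares of all genes. Neutrophil markers, lower in callus for 4 of 10 genes over all arrays and 7 without BI and SU, had list means of 9.42 to 13.72 on callus arrays and 13.57 to 14.64 on uninjured arrays. Cell cycle genes, lower for 9 of 9 over all arrays and 8 without BI and SU, had 10.61 to 12.35 on callus arrays and 12.35 to 12.92 on uninjured arrays. B cell markers (2 of 6 lower, 5 without BI and SU) had means of 7.24 to 10.05 in callus and 8.27 to 9.70 in uninjured bone, and macrophage markers (3 of 7 lower, 5 without BI and SU) 7.55 to 10.13 in callus and 9.26 to 11.13 in uninjured bone. Over all arrays, callus and uninjured ranges thus overlapped for each of these lists but the cell cycle genes, whose ranges met at 12.35. Without BI and SU the macrophage ranges still overlapped and the others did not. The highest callus and lowest uninjured means were then 13.72 and 13.77 for neutrophil, 8.37 and 9.02 for B cell and 11.67 and 12.35 for cell cycle genes. Megakaryocyte markers (1 of 6 lower, 4 without BI and SU) had 7.26 to 8.94 in callus and 7.53 to 10.90 in uninjured bone, and mast cell and eosinophil markers (4 of 5 lower, also without BI and SU) 6.10 to 8.27 in callus and 6.97 to 10.70 in uninjured bone. Endothelial markers had 0 of 7 called in either set of arrays, with means of 6.94 to 12.02 in callus and all uninjured means inside that range.

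The means of the marker lists differed in how they went with the mean of the 6 lineage genes. Over the 17 arrays the correlation was 0.868 for B cell, 0.792 for neutrophil, 0.753 for cell cycle, 0.721 for mast cell and 0.67 for megakaryocyte genes, against 0.215 for macrophage, 0.167 for endothelial and -0.299 for osteoclast genes. Without BI and SU it was 0.883, 0.882, 0.93, 0.844, 0.634, 0.321, 0.134 and -0.501 in the same order. Skeletal progenitor markers, higher in callus for 7 of 7 with and without BI and SU, had means of 12.30 to 13.52 on callus arrays and 8.80 to 11.61 on uninjured arrays, and a correlation of -0.515 over all arrays and -0.877 without BI and SU. Ptprc, which encodes the CD45 antigen that the sort excluded, was lower in callus by -2.89 (limma adjusted p = 0.00392), with 12.73 on BI and 14.59 on SU and 6.58 to 10.62 on the two-letter callus arrays. Among these lists 1 osteoclast marker was at the floor on every array. The part of these cells in the members' differences was not tested.

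On SU the cell cycle mean was 12.79, within the range of the other uninjured arrays. The neutrophil mean (13.57), the skeletal mean (8.80) and the mean of the erythroid transcription factors (10.19) lay below that range. The lowest means of the other uninjured arrays were 13.77, 9.02 and 10.41 for these lists. The mean of the red cell membrane list on SU was 7.66, below every other array. The macrophage (9.26), B cell (8.27), megakaryocyte (7.53) and mast cell (6.97) means of SU also lay below those of the other 4 uninjured arrays. On BI the skeletal mean was 12.30, the lowest of callus but above every uninjured array, and the membrane mean was 12.12. The neutrophil mean on BI was 13.50, below OIS (13.72) alone among callus arrays, and its B cell (10.05) and cell cycle (12.35) means were the highest of callus. Over all genes tested SU was most like the uninjured arrays BU (Spearman rho = 0.902) and SUS (0.895). BI was most like uninjured OUS (0.841) and OUB (0.838), followed by callus OIS (0.832) and OIB (0.815) and uninjured SUS (0.811), with 0.787 for BU and 0.777 for SI.

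**Figure D4:**
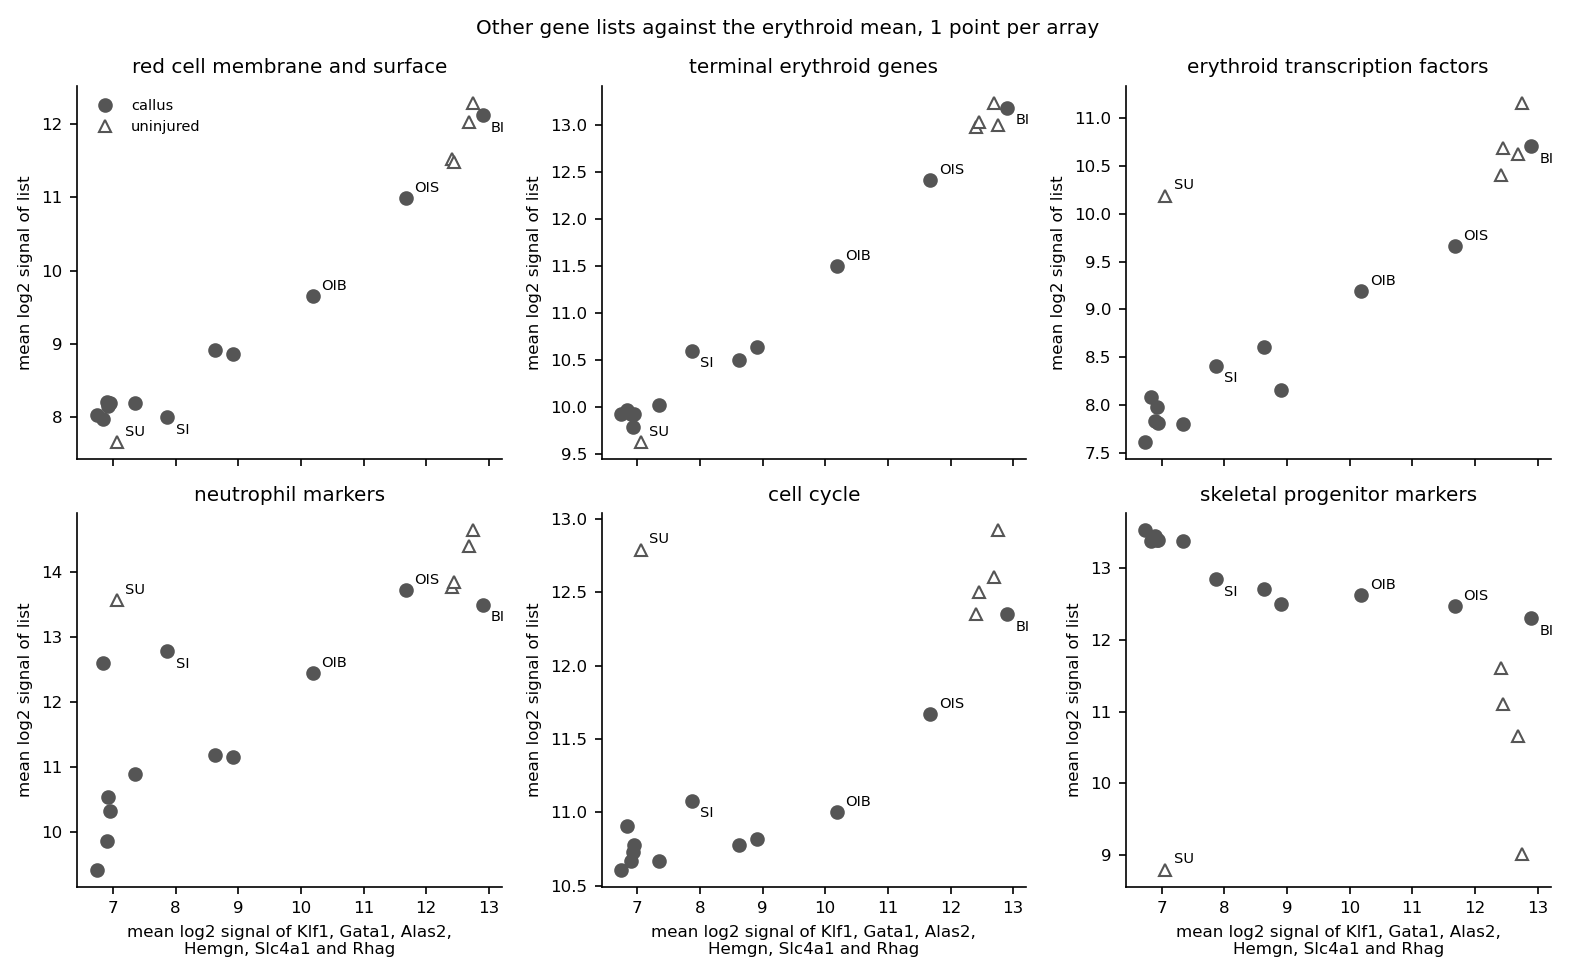
Mean log2 signal of 6 gene lists (vertical axes) against the mean log2 signal of Klf1, Gata1, Alas2, Hemgn, Slc4a1 and Rhag (horizontal axis), 1 point per array (filled circles callus, open triangles uninjured bone). On SU the membrane (7.66) and terminal erythroid (9.63) means are low while the neutrophil (13.57) and cell cycle (12.79) means are near those of the other uninjured arrays.

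Tfrc has 6 probe sets, of which 3 are control probe sets that read the 3′ end, the middle and the 5′ end of the transcript. Over probe sets (27212 tested, 40.5% called) all 6 were lower in callus against uninjured bone, between -1.10 and -1.90, and the 5′ (-1.70, limma adjusted p = 0.00672) and middle (-1.56, limma adjusted p = 0.0394) control probe sets passed. Those calls take in low reads on callus arrays: the 5′ probe set on BI (6.27) and SI (floor) and the middle one on SI (6.62, against 9.11 at the 3′ end). No fit over probe sets left these arrays out. On BI the 3′ and middle probe sets read 10.32 and 10.29, close to 10.89 and 10.86 on uninjured BU, but the 5′ probe set read 6.27, against 9.27 on BU. The 3′ minus 5′ difference was 4.04 on BI and 3.16 on SI, the callus arrays of unstated surgery, and between -0.48 and 1.67 on the other 15 arrays. The same differences on BI were 0.34 for the Gapdh and -0.02 for the Actb control probe sets. Whether reads of the 5′ end bear on the members' levels on BI was not tested.

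**Figure D5:**
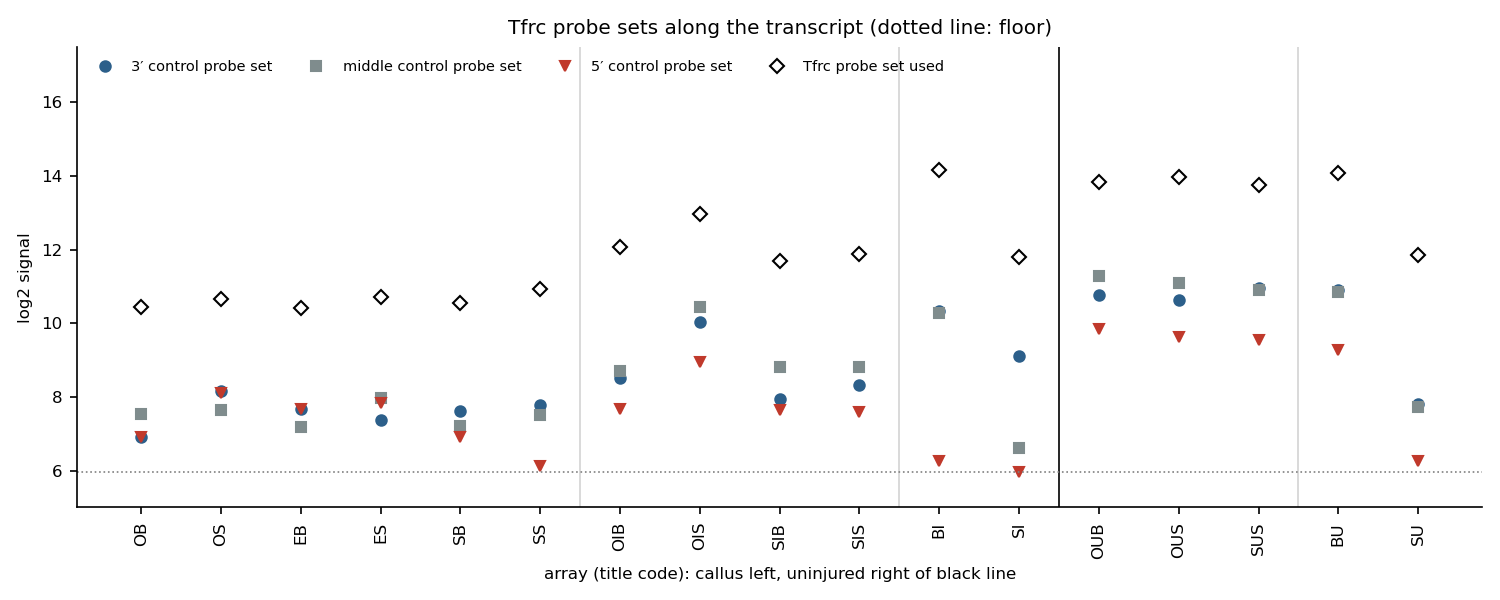
Log2 signal of the Tfrc probe set used and of the 3′, middle and 5′ control probe sets of Tfrc on each array (callus left and uninjured bone right of the black line). On callus BI and SI the 5′ probe set lies 4.04 and 3.16 below the 3′ one.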

How the data were processed

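RNA of double-sorted cells was hybridized to 17 arrays. The methods give TRIzol, an RNeasy Micro clean-up and 2 RiboAmp amplification rounds, then dChip and Gene Expression Commons. MAS5, unversioned, stands in the submitters' processing notes, so the tool that made the deposited log2 signals is not settled. Array values carry no read depth, so the number of arrays limits the precision.

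The 45101 probe sets were put back on the linear scale and quantile normalized; signals under the 20th percentile were set to it (log2 5.952), and log2 was taken again. The probe set of highest mean stood for each of 18193 single-symbol genes, and the 14502 genes at or above the 40th percentile (log2 7.2) on at least 2 arrays were tested. Probe sets with several symbols (932), with none (9160) and 64 control probe sets were left out, except that the Tfrc controls entered a fit over probe sets. limma 3.58.1 in R 4.3.3 (lmFit, eBayes with trend, Benjamini-Hochberg over all genes tested, threshold 0.05) fitted injury with population and title form (12 residual degrees of freedom), and 7 groups of surgery and injury with population and title form (7). The scripts were tested on simulated data. The members, the gene lists and the naming rule (all members, up to 4 genes of largest change of a pathway list, the 5 most like genes) were chosen with earlier results of these data known, and other genes named were chosen after their values were seen. Alternatives changed the normalization, floor, filter, probe set, form term and the placing of arrays, and single arrays were omitted one by one.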

Additional observations from a re-analysis of the deposited data

Results flagged for a closer look

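In uninjured bone the array SU lay far below the other 4 arrays for 7 of the 9 genes, by a gap of more than 0.71 of the whole range, the 95% limit of Dixon's test for 5 values. The log2 signals on SU were 6.62 for Klf1, 7.69 for Alas2, 7.50 for Hemgn, 7.46 for Slc4a1, 5.95 for Rhag, 11.85 for Tfrc and 11.55 for Car2. Of 18 such groups examined (9 genes in uninjured bone and in sham callus) 7 were marked, and chance marks about 1 group in 20, but genes that move together over arrays are not separate tests.

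The difference between mBCSP and mSSC arrays depended on the title form for all 9 genes in the test reported above. Between the population-first form and the mean of the other forms it was 4.80 for Klf1, 4.36 for Gata1, 5.68 for Alas2, 5.94 for Hemgn, 6.31 for Slc4a1, 7.44 for Rhag, 3.92 for Epor, 2.65 for Tfrc and 4.18 for Car2. The value of Rhag rests on arrays at the floor in both populations of the two-letter form and on an mSSC array at the floor in each population-first pair, and was 8.66 with no floor. Each value rests on 2 pairs of one form and 6 pairs of the others.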

How the results depend on the processing

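Values of single members under the alternatives numbered 1161, of which 1011 kept direction and side of the threshold, 95 changed sign and 55 passed where the reported fit did not. The alternatives chosen after seeing the data were the fits within 1 form, those without BI and SU and the test between forms with no floor. No paired analysis was possible by replicate number, because the labels give none; the mBCSP and mSSC arrays of the same labels and form were paired instead, and with the pair of arrays as a block 0 members and 0 genes were called, as in the reported fit (Klf1 0.71, Rhag 1.54).

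In callus against uninjured bone the number of members called was 0, and 9 with no term for the form, 2 with the form as a random block, 8 in the three-letter form only and 9 without BI and SU. Leaving out each array gave 0 to 9 (2 without OIS, 8 without BI, 9 without SU). The number of genes called was 3531 with surgery groups as terms (sham arrays only) and 1216 in the population-first form only. In that form Klf1 (0.17), Gata1 (0.38), Alas2 (0.98), Hemgn (0.39), Slc4a1 (0.98) and Tfrc (0.01) changed sign.

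In OVX against sham callus, no filter gave 1 gene called and counting the conflicting arrays as OVX 2, with Klf1 at 0.80, Gata1 0.75, Alas2 0.71, Hemgn 1.18, Slc4a1 0.74, Tfrc 0.27 and Car2 1.04. Epor was -0.11 with no term for the form, and Tfrc 1.74 on its probe set of widest range. Leaving out an array gave Alas2 -1.41 to 0.55, Car2 -1.59 to 0.53, Epor -0.34 to 0.84, Gata1 -1.01 to 0.35, Hemgn -1.77 to 0.81, Klf1 -1.13 to 0.89, Slc4a1 -1.18 to 0.51 and Tfrc -0.57 to 0.19, the signs turning without SS or OB and, for Epor, without SB or OS.

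In OVX + E2 against OVX callus the 3 genes called became 0 with no form term and 1 with the form as a random block, and 0 to 8 without an array (0 without OB, OS, EB or ES, 8 without SI or BI). Hemgn was 0.03 with no floor, Tfrc -0.40 on its widest probe set, and Klf1 -0.25, Gata1 -0.20, Tfrc -0.22 and Car2 -0.64 with the conflicting arrays as OVX. Leaving out an array gave Alas2 -0.78 to 0.61, Car2 -0.40 to 0.68, Epor -0.67 to 0.34, Gata1 -0.34 to 1.02, Hemgn -0.95 to 0.53, Klf1 -0.23 to 0.64 and Tfrc -0.35 to 0.37, turning without OB, OS, EB or ES.

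In OVX against sham uninjured bone the 21 genes called became 484 with no form term, 241 with it as a random block, 46 with no filter and 7 without quantile normalization, and 6 to 76 without an array (6 without OUB, 76 without BI). With no form term Klf1 was 1.01, Gata1 0.13, Alas2 1.77, Hemgn 2.02, Slc4a1 1.94, Rhag 1.92, Epor 0.13 and Car2 0.92, and with it as a random block Klf1 0.54, Alas2 1.16, Hemgn 1.47, Slc4a1 1.23, Rhag 1.35 and Car2 0.52. Leaving out an array gave Hemgn -0.55 to 0.09 (turning without BU, OUB, SI, BI or SU) and Rhag -1.59 to 0.25 (without OUB). Without SUS this comparison could not be fitted.

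In mBCSP against mSSC the genes called were 35 in the three-letter form only and 90 in the population-first form only, with 8 members called there. In the three-letter form Klf1 was -0.65, Gata1 -0.29, Alas2 -0.71, Hemgn -0.62, Slc4a1 -0.71, Rhag -0.64, Epor -0.24, Tfrc -0.41 and Car2 -0.43, and in the two-letter form Klf1 was -0.33, Alas2 -0.42, Hemgn -0.60, Epor -0.09, Tfrc -0.29 and Car2 -0.71. Without BI and SU all 9 turned: Klf1 -0.49, Gata1 -0.13, Alas2 -0.56, Hemgn -0.61, Slc4a1 -0.25, Rhag -0.32, Epor -0.17, Tfrc -0.35 and Car2 -0.57. Car2 ran from -0.04 (without SI or BI) to 0.74 when an array was left out. The causes were not tested. Signals at the floor are upper bounds, so the difference between an array above the floor and one at it is understated for Rhag, Hemgn and Gata1. Fitted fold changes need not be. In callus against uninjured bone they were -2.33 (Rhag), -1.90 (Hemgn) and -1.41 (Gata1) with the floor, and -2.59, -1.88 and -1.41 without it.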
